A study of Mus musculus with 18 samples.

Results

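The cytosol of the liver cell needs acetyl-CoA as carbon and NADPH as reducing power for building fatty acids and sterols, and the 8 genes described here encode steps that supply them. They were taken by name: Acly, Acss2, Slc25a1, Aacs, Me1, G6pdx, Pgd and Tkt, out of 27566 gene names on the array. All probes carrying these names were taken, which gave 16 of the 41174 probes. For 7 genes the name in the scanner files matched directly, and the 2 probes of Me1 were found under its older symbol Mod1. Of the 16 probes, 14 were bright enough to be tested, among 25427 tested in all, and every gene kept at least 1 probe.

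The samples were livers of male CD-1 mice, an outbred strain, that were 9 weeks old when killed. From 5 weeks of age they ate a powdered diet rich in starch and sucrose for 28 days, and all 3 groups shared this diet and differed in the amount of bisphenol A, a plastics monomer, mixed into it. The 6 control mice received 0 µg per kg body weight per day, the 6 low-dose mice 50 and the 6 high-dose mice 5000, as calculated from an assumed food intake. The labels name these doses the tolerable daily intake and the no-observed-adverse-effect level. RNA of a fragment of the large lobe was labelled with Cy3 and hybridised to 1 Agilent array per mouse.

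Citrate made in mitochondria leaves them through the carrier Slc25a1, and ATP citrate lyase (Acly) splits it in the cytosol into acetyl-CoA and oxaloacetate. Acss2 makes acetyl-CoA from free acetate, and Aacs turns acetoacetate, a ketone body, into acetoacetyl-CoA. Malic enzyme (Me1) releases NADPH as it converts malate to pyruvate, G6pdx and Pgd are the dehydrogenases of the oxidative pentose phosphate pathway, and Tkt, transketolase, exchanges carbon between that pathway and glycolysis. In liver, several of these genes are known as targets of the lipogenic factors SREBP and ChREBP and are induced by feeding on carbohydrate.

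Levels below are on a log2 scale of background-subtracted intensity, set relative to each array's own 75th percentile, so 0 is the brightness of the array's 75th percentile probe and a difference of 1 is a factor of 2 in intensity. They are compared between mice for 1 probe and never between probes. Only the summed levels of cell type markers below add several probes. A probe counts as called when its adjusted p from limma (Benjamini-Hochberg over all 25427 probes) is under 0.05. Whole-liver RNA was measured, so fewer cells of a type and less RNA per cell cannot be told apart.

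On the levels described above, probes of Acly and Acss2 had higher means at the low dose. The probe of Slc25a1, the step just before Acly, hardly differed. The promoters of these 3 members are shown because their probes moved differently. Each is the 250 bases before the gene's start, from RefSeq on build GRCm38.p6, written 5′ to 3′ on the gene's strand, with matches to the motifs named below in capitals. The windows are chr11:100528001-100528250 on the minus strand for Acly, chr2:155517793-155518042 on the plus strand for Acss2, and chr16:17928220-17928469 on the minus strand for Slc25a1.
Acly: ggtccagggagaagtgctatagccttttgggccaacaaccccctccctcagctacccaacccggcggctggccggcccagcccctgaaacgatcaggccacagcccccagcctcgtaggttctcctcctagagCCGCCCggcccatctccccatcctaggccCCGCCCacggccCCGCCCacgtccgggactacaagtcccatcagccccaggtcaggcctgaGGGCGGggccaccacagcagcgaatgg
Acss2: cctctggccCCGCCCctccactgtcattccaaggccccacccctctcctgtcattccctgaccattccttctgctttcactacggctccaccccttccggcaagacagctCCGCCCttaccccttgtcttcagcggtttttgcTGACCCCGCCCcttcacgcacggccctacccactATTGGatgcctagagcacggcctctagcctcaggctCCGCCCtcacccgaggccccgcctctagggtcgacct
Slc25a1: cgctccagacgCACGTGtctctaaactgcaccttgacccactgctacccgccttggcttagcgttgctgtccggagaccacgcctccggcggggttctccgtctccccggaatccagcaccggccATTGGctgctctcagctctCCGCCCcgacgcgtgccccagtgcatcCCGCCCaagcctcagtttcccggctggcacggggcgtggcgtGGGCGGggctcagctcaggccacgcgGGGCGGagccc
The windows of all 8 members were searched on both strands for 8 motifs, beside 32851 RefSeq windows of the same length. The Sp1 box GGGCGG was found in 7 of the 8 members, with Aacs as the exception, against 32.7% of all windows. Acly, Acss2 and Slc25a1 each held it 4 times. The member windows held from 59.6% (Tkt) to 72% (Me1) G and C, the only letters of this box. The same share over all windows was not taken, so the part of base composition was not tested. The NF-Y box CCAAT was in Acss2, Slc25a1 and Pgd, against 33.8% of all windows. The antioxidant response element core TGACNNNGC was in Acss2, where it overlaps an Sp1 box, and in Aacs and G6pdx, against 10.2%. The E-box CACGTG was in Slc25a1 alone among the members, against 6.02%. The core of the sterol regulatory element, TCACNCCAC, was in 0 of the 8 windows and in 1.05% of all. A pair of E-boxes spaced by 5 bases, the form of a carbohydrate response element, was in 0 members when written loosely as CANNTGNNNNNCANNTG, against 0.639% of all windows, and its exact form was in 0 of the 32851 windows. The LXR element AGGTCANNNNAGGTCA was in 0 members and in 0.0152% of all. These are matches of letters in a short window and show no binding.

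The first comparison asked how the low dose differed from control. Of the members, Acly rose, by 3.70-fold. Aacs, Acss2, Me1, Pgd and G6pdx had higher means at the low dose without passing the test. On these levels Slc25a1 and the bright probe of Tkt hardly differed. All 14 probes had a higher mean at the low dose than in controls, and 1 was called, against 0.224% of all probes (57 of 25427), 0.157% called upwards and 0.0669% downwards. An unadjusted p under 0.05 in the upward direction was reached by 10 of the 14 probes, against 5.43% of all, and in the downward direction by 0, against 6.86%. The median log2 difference of the 14 probes was 0.73, against -0.02 over all probes, of which 46% were higher. Over all 14 these counts hold the dim Acss2 probe A_52_P337928, which was bright enough to be tested only through the low-dose mice. Over the 11 probes well above background on all 18 arrays, all 11 were higher, 7 reached an unadjusted p under 0.05 and the median was 0.65.

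**Figure D1:**
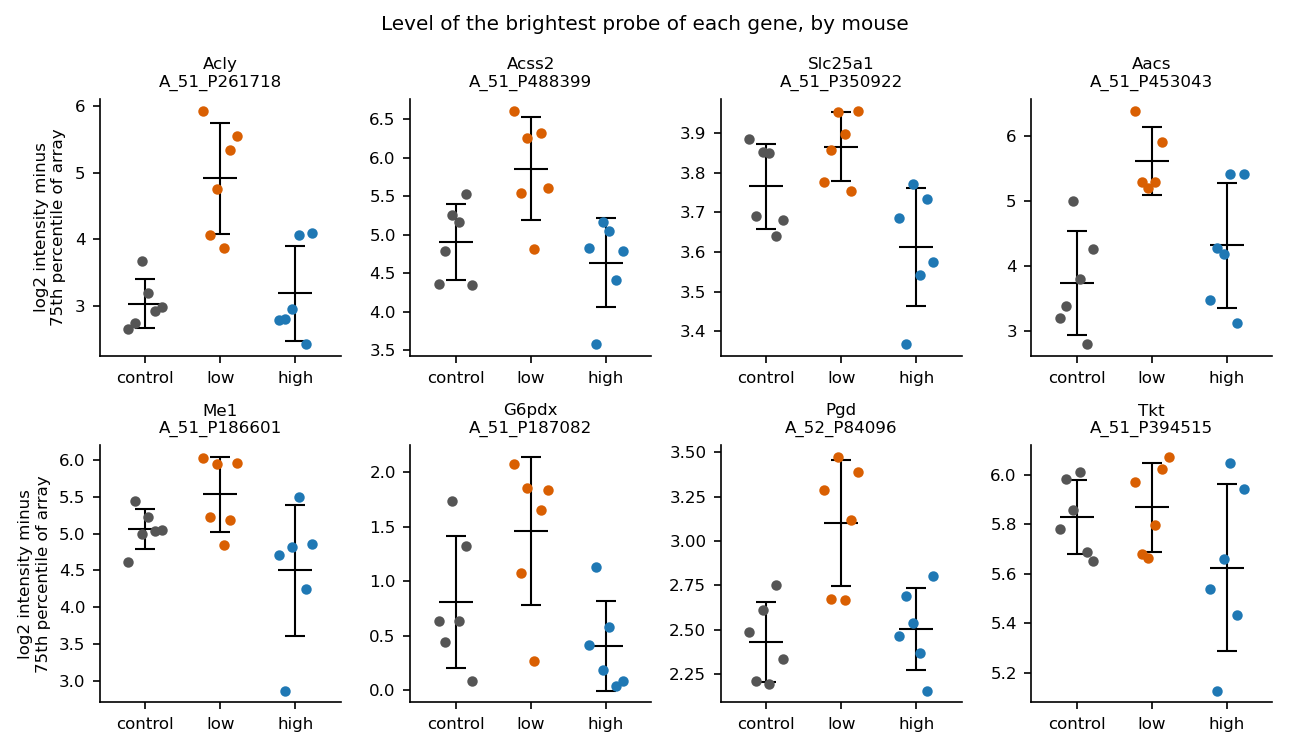
Level of the brightest probe of each gene in each mouse, as log2 intensity relative to each array's 75th percentile, with points for mice and bars for the group mean ± SD (n = 6 per group, 5 for Aacs at the low dose). The 6 low-dose mice lie above all 6 controls for Acly, while the groups overlap for Slc25a1 and Tkt; each panel has its own axis.

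Acly was read by 2 probes. The bright one, A_51_P261718, lies at chr11:100293293-100293351 on the minus strand of build mm8, the build of the array files. Its level in control mice 1 to 6 was 2.65, 2.75, 3.67, 3.20, 2.93 and 2.99. In low-dose mice 1 to 6 it was 5.93, 4.07, 4.76, 3.87, 5.35 and 5.55. The lowest low-dose mouse was thus above the highest control, a separation seen upwards in 0.763% of all probes, and low-dose mice 2 and 4 lay closest to the controls. The group means were 4.92 ± 0.83 at the low dose and 3.03 ± 0.37 in controls (SD, n = 6 each). Their difference was 1.89 ± 0.36 SE on the log2 scale (adjusted p = 0.0429, limma). With slide, inferred from the scan time, as a block the difference was 1.68 and the adjusted p 0.177.

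The second Acly probe, A_52_P373556, is dim and was well above background in 3 of 6 controls and in all 12 dosed mice. Its level was -4.58 ± 1.07 in controls and -2.35 ± 1.29 at the low dose, and 4 of 6 low-dose mice lay above every control. The difference of 2.23 ± 0.59 SE did not pass (adjusted p = 0.119, limma). Both Acly probes had the same sign. The dim one carries the name Acly, but its deposited description is that of an unclassifiable cerebellum clone. Its difference was 0.30 with the normexp background method and 0.94 in the deposited value table.

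The call on Acly sat close to the threshold and depended on single mice. It was kept in 7 of the 18 fits that left out 1 array. Without control mouse 1 the adjusted p was 0.103, without control 2 0.0747, without control 4 0.0858, without control 5 0.111 and without control 6 0.0812. Without low-dose mouse 1 it was 0.115, without low-dose mouse 3 0.0741, without 5 0.0783 and without 6 0.102. Leaving out high-dose mouse 1 or 3, which only changes the shared spread, gave 0.0545 and 0.0542. The size of the difference stayed between 1.69 and 2.10 in all 18 fits.

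Slc25a1, the citrate carrier, was read by 1 probe, A_51_P350922, at chr16:17839073-17839132 (mm8, minus strand). Its level was 3.77 ± 0.11 in controls and 3.87 ± 0.09 at the low dose (SD, n = 6 each). The difference was 0.10 ± 0.08 SE, with a 95% interval from -0.07 to 0.27 (adjusted p = 0.681, limma). Controls spanned 3.64 to 3.89 and low-dose mice 3.75 to 3.96, so the groups overlapped widely. With the normexp background method the difference was 0.46 (adjusted p = 0.473, limma), against a median of -0.16 over all probes.

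Acss2, which activates acetate, had 3 tested probes. For A_51_P488399, at chr2:155253831-155253893 (mm8, plus strand), the controls ranged from 4.35 through a median of 4.98 to 5.52 and the low-dose mice from 4.81 through 5.93 to 6.61. Only low-dose mouse 4, at 4.81, fell inside the control range. The difference was 0.95 ± 0.32 SE, or 1.94-fold (adjusted p = 0.217, limma). The probe A_52_P566718, which lies beside it, gave 0.79 ± 0.32 SE (adjusted p = 0.319, limma). The dim probe A_52_P337928 gave 1.11 ± 0.41 SE, but it was well above background in 2 controls, 6 low-dose and 2 high-dose mice and so was kept only because of the low-dose group. None of the 3 passed.

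Aacs, which activates acetoacetate, was read by A_51_P453043 at chr5:125806615-125806674 (mm8, plus strand). Its level in control mice 1 to 6 was 3.19, 3.37, 5.00, 3.80, 2.79 and 4.26. In low-dose mice 1 to 5 it was 6.39, 5.29, 5.19, 5.28 and 5.91; the spot of low-dose mouse 6 was marked as an outlier by the scanner software and dropped. Every measured low-dose mouse lay above every control, and control mouse 3 came closest to them. The share of 0.763% of all probes given for Acly counts only probes read in every mouse of both groups, so Aacs is outside it. The difference of 1.88 ± 0.45 SE, or 3.68-fold (n = 5 against 6), did not pass (adjusted p = 0.0903, limma). With the dropped spot kept, an alternative chosen after the data were seen, it was 1.92 with an adjusted p of 0.0658.

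Among the NADPH sources, malic enzyme (Me1) was read by 2 probes that differed in size. A_51_P266861, at chr9:86378398-86378458 (mm8, minus strand), was 3.68 to 4.27 in controls, with a median of 3.99, and 4.49 to 5.64 at the low dose, with a median of 5.12. The groups did not overlap, a separation seen upwards in 0.763% of all probes. The difference was 1.09 ± 0.32 SE, or 2.14-fold (adjusted p = 0.152, limma). A_51_P186601, at chr9:86383141-86383200, gave 0.47 ± 0.33 SE (adjusted p = 0.617, limma), with 3 of 6 low-dose mice above the highest control. The deposited description of this second probe is that of a null malic enzyme mRNA with a partial coding sequence.

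Glucose-6-phosphate dehydrogenase (G6pdx), the first step of the pentose phosphate pathway, was read by A_51_P187082 at chrX:70662330-70662389 (mm8, minus strand). Controls ranged from 0.09 through a median of 0.64 to 1.73, and low-dose mice from 0.27 through 1.75 to 2.08. The groups overlapped, with 3 of 6 low-dose mice above every control, and the difference was 0.65 ± 0.31 SE (adjusted p = 0.415, limma).

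Pgd, the second dehydrogenase of that pathway, had 2 probes close together on chromosome 4. For A_52_P84096, at chr4:147993984-147994043 (mm8, minus strand), control mice 1 to 6 were at 2.49, 2.21, 2.61, 2.19, 2.75 and 2.33. Low-dose mice 1 to 6 were at 3.29, 2.67, 3.47, 2.67, 3.12 and 3.39. Mice 2 and 4 of the low-dose group lay inside the control range and the other 4 above it. The difference was 0.67 ± 0.16 SE, or 1.59-fold (adjusted p = 0.0826, limma). Its neighbour A_51_P391996 gave 0.45 ± 0.16 SE (adjusted p = 0.258, limma).

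Transketolase (Tkt) showed the smallest difference of the bright probes. A_51_P394515, at chr14:29402464-29402523 (mm8, plus strand), was at 5.83 ± 0.15 in controls and 5.87 ± 0.18 at the low dose (SD, n = 6 each). The difference was 0.04 ± 0.14 SE, with a 95% interval from -0.25 to 0.33 (adjusted p = 0.942, limma). With the normexp background method it was 0.41 (adjusted p = 0.473, limma). The dim probe A_52_P624447, whose median spot intensity was 20.6, gave 0.65 ± 0.20 SE (adjusted p = 0.165, limma). The normexp background method adds 50 intensity units to each spot. With it this dim probe turned to -0.34, and the dim Acss2 probe to -0.36. The added 50 units exceed their median intensities of 20.6 and 9.88, so these turns cannot settle a direction. In the deposited value table the differences were 0.245 for this Tkt probe and 0.213 for the Acss2 probe.

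**Figure D2:**
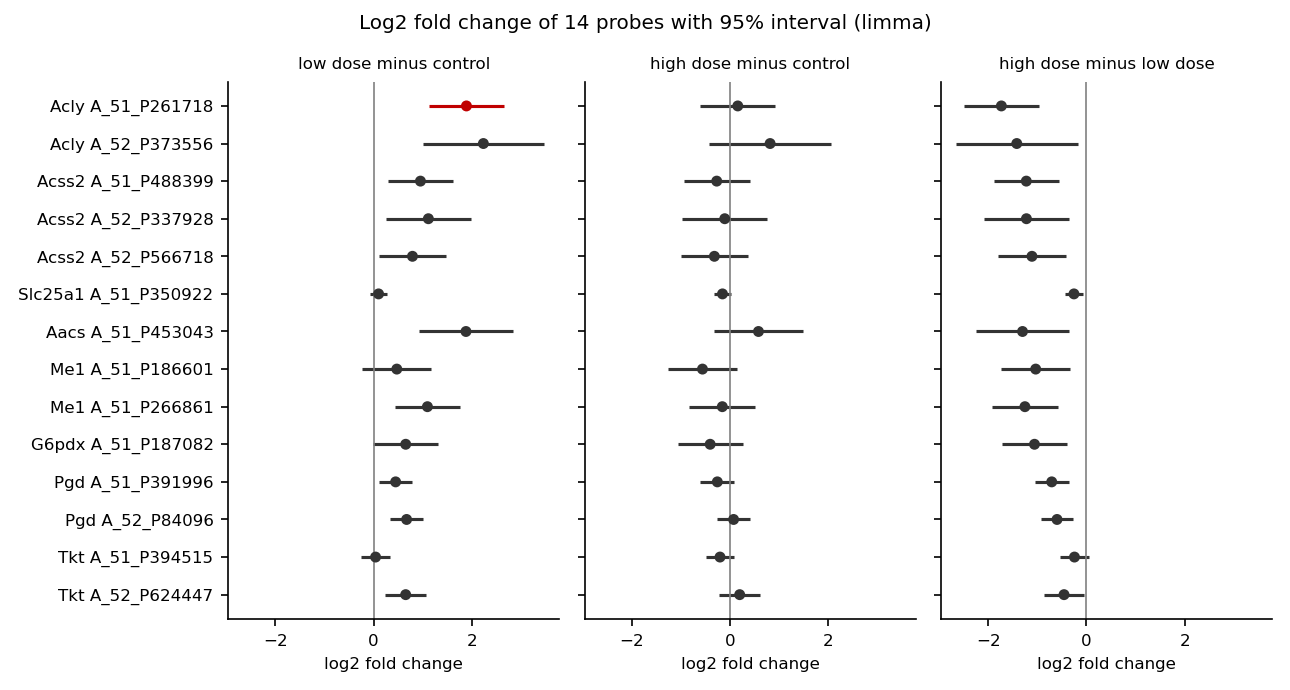
Log2 fold change of the 14 tested probes in the 3 comparisons (points) with 95% intervals from limma (bars), the called probe in red. All points lie right of 0 for low dose against control, on both sides of 0 for high dose against control, and left of 0 for high against low dose.

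The second comparison asked how the high dose differed from control. Of the 14 probes, 5 had a higher mean at the high dose and 9 a lower one, and 0 were called by limma, as were 0% of all probes. The count at an unadjusted p under 0.05 was also 0 of 14, against 3.01% of all probes upwards and 4.27% downwards. The median log2 difference was -0.16, against -0.01 over all probes. Member differences ran from -0.56 for Me1 A_51_P186601 to 0.82 for the dim Acly probe.

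For the bright Acly probe, high-dose mice 1 to 6 were at 2.79, 2.80, 2.96, 4.06, 2.43 and 4.09. Mice 4 and 6 stood above every control, mouse 5 lay below every control, and the other 3 lay inside the control range. The difference from control was 0.16 ± 0.36 SE, with a 95% interval from -0.61 to 0.92 (adjusted p = 0.947, limma). Without high-dose mouse 4 it was -0.02, and without high-dose mouse 6 also -0.02.

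For Aacs the high-dose mice were at 3.47, 4.28, 4.18, 5.41, 3.12 and 5.42. Mice 4 and 6 were again the high ones, and the difference from control was 0.58 ± 0.43 SE (adjusted p = 0.791, limma). Its 95% interval ran from -0.33 to 1.49.

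Several members had their lowest value in 1 animal, high-dose mouse 2. It was at 3.58 for Acss2 A_51_P488399, where the other high-dose mice were at 4.41 to 5.16, and at 2.86 for Me1 A_51_P186601, where the lowest of the others was at 4.25. The Me1 difference of -0.56 ± 0.33 SE became -0.23 without this mouse. The Acss2 difference of -0.27 ± 0.32 SE became -0.06. The 95% intervals at the high dose were -0.33 to 0.02 for Slc25a1, -1.07 to 0.26 for G6pdx, -0.26 to 0.41 for Pgd A_52_P84096 and -0.49 to 0.09 for Tkt A_51_P394515.

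The third comparison set the high dose directly against the low dose, and shares the low-dose mice with the first. All 14 probes were lower at the high dose, 13 of them at an unadjusted p under 0.05, against 4.33% of all probes in that direction and 3.33% upwards. These counts again hold the dim Acss2 probe that was tested only through the low-dose mice. Over the 11 probes well above background on all arrays they were 11 and 10, with a median of -1.03. The choice of members and the genes with several probes limit these counts as in the first comparison. Limma called 0, against 0.0433% of all probes (11 of 25427), 0.0393% downwards and 0.00393% upwards. The median log2 difference was -1.08, against 0.01 over all probes. Acly A_51_P261718 differed by -1.73 ± 0.36 SE (adjusted p = 0.135, limma), and 4 of 6 high-dose mice lay below every low-dose mouse. Me1 A_51_P266861 differed by -1.25 ± 0.32 SE (adjusted p = 0.207, limma), and Acss2 A_51_P488399 by -1.22 ± 0.32 SE (adjusted p = 0.217, limma). For Aacs the difference was -1.30 ± 0.45 SE (adjusted p = 0.473, limma) and for G6pdx -1.06 ± 0.31 SE (adjusted p = 0.33, limma). The smallest were Slc25a1 at -0.25 ± 0.08 SE and Tkt A_51_P394515 at -0.24 ± 0.14 SE. The mean of each of the 14 probes was highest at the low dose, although only the bright Acly probe passed against control and 0 passed between the doses. With the normexp background method the dim Acss2 and Tkt probes turned to 0.08 and 0.23 here.

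The members did not move to the same extent in every low-dose mouse. In low-dose mouse 1, 12 of 14 probes were above the highest control, in mouse 3 11, in mouse 5 10 and in mouse 6 13 of the 13 measured. In mouse 2 the count was 6 and in mouse 4 it was 5. Median deviations from the control mean were 1.42, 0.42, 0.97, 0.25, 0.81 and 0.90 for low-dose mice 1 to 6. Of the high-dose mice, number 4 had 7 probes above the highest control and number 6 had 5, while the other 4 had 0. These counts hold the dim Acss2 probe A_52_P337928, which was tested only through the low-dose mice. The share of all probes above the highest control in each mouse was not counted, so the counts are descriptions only. Low-dose mice 2 and 4 were low together for Acly, G6pdx and Pgd, but mouse 2 lay above every control for Acss2 A_51_P488399.

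**Figure D3:**
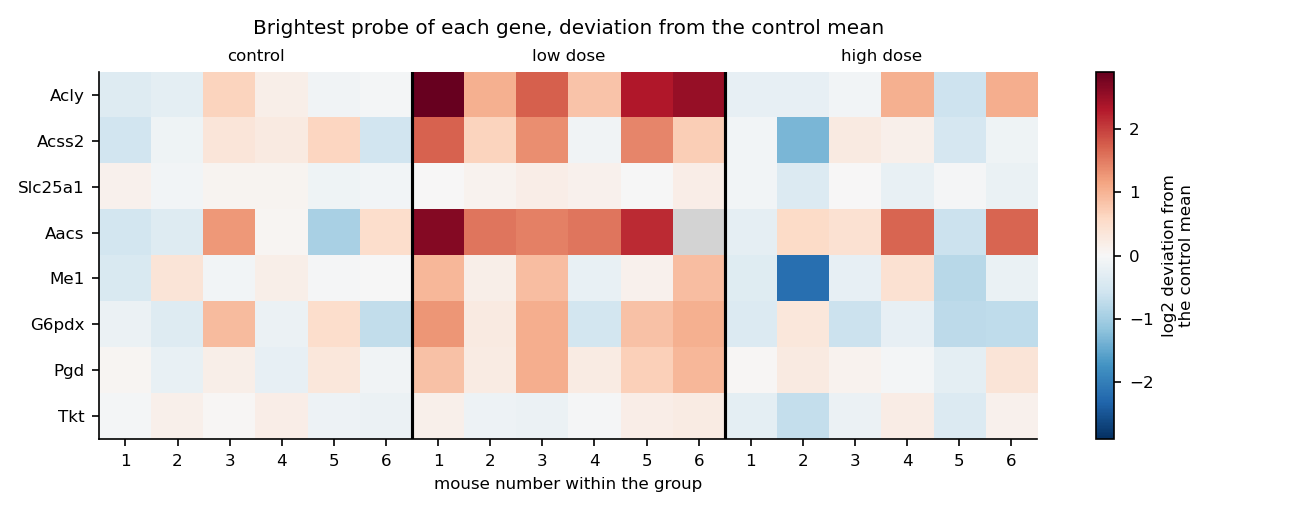
Deviation of each mouse from the control mean (colour, log2 scale, red above and blue below) for the brightest probe of each gene, by group and mouse number, with grey for the dropped Aacs spot. The red columns of low-dose mice 1, 3, 5 and 6 span Acly, Acss2, G6pdx and Pgd, the rows of Slc25a1 and Tkt stay pale, and high-dose mouse 2 is blue for Acss2 and Me1.

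The files give a scan time and a position for each array. Arrays of 1 scan time never shared a position and were taken to be 1 slide, an inference that gave 5 slides, with both dosed groups on all 5 and controls on 4. Within these 4 slides the low dose was above control for Acly A_51_P261718 on all 4, by 1.25, 0.43, 2.62 and 2.89 on slides 2 to 5. Me1 A_51_P266861, Pgd A_52_P84096 and Slc25a1 were also higher on all 4, with ranges of 0.35 to 1.56, 0.26 to 0.99 and 0.05 to 0.32. The second probes of Me1 and Pgd did not hold on every slide. Me1 A_51_P186601 was lower on slide 3, by -0.27, and Pgd A_51_P391996 on slide 2, by -0.24. Tkt A_51_P394515 was lower on slides 2 and 3, by -0.04 and -0.14. Aacs was higher on all 3 slides where it could be read, by 0.88 to 2.78. Acss2 A_51_P488399 and G6pdx were higher on 3 of 4 slides and lower on slide 3, by -0.40 and -0.92. That slide held low-dose mouse 4 with control mice 3 and 4. A slide holds 1 or 2 mice per group, so these values have no test.

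**Figure D4:**
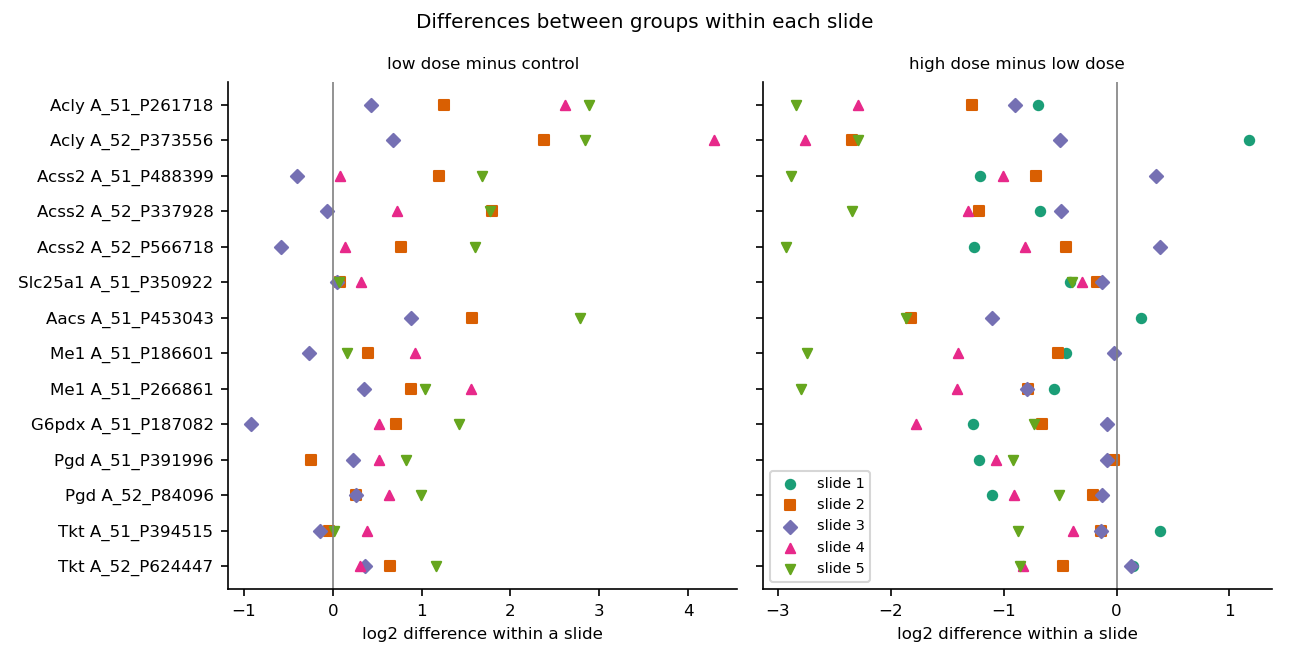
Differences between group means within each slide (arrays of 1 scan time) on the log2 scale, for low dose minus control (4 slides) and high minus low dose (5 slides), 1 symbol per slide and 1 row per probe. The Acly, Me1 A_51_P266861 and Pgd A_52_P84096 points lie right of 0 on all 4 slides for low dose minus control, and slide 3 lies left of 0 for Acss2 and G6pdx. In the same panel the points of Me1 A_51_P186601, Pgd A_51_P391996 and Tkt A_51_P394515 lie on both sides of 0.

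The arrays of both dosed groups were brighter than those of controls before scaling. Controls had a 75th percentile of 230.1 ± 43.1 intensity units, low-dose arrays one of 295.4 ± 44.0 and high-dose arrays one of 291.8 ± 34.1 (SD, n = 6 each). With this brightness as a covariate the Acly difference was 1.59 (adjusted p = 0.456, limma), and 0 of 25427 probes were called. Position on a slide went largely with group: controls held only positions 1 and 4, and every low-dose mouse but number 5 held position 2 or 3. The part of brightness and of position in these values was not tested.

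Related genes were taken from 8 lists, each gene read from its brightest probe. Over all probes 46% were higher and 54% lower at the low dose. An unadjusted p under 0.05 was reached upwards by 5.43% of all probes and downwards by 6.86%. Among 10 measured other genes of the pentose phosphate pathway, 5 were higher and 5 lower at the low dose. Their median was 0.00 and ran from -0.02 to 0.23 over the alternatives. At an unadjusted p under 0.05, 2 were higher and 1 lower. Rpia, ribose-5-phosphate isomerase of the non-oxidative branch, rose from 0.47 to 1.58 (1.11 ± 0.21 SE, adjusted p = 0.0429, limma). H6pd, the dehydrogenase of the endoplasmic reticulum, was at -0.39 ± 0.15 SE (adjusted p = 0.271) and Pgm2 at 0.40 ± 0.16 SE (adjusted p = 0.322). Of 11 measured other genes that make or use NADPH, 7 were higher with a median of 0.14, 0 were called by limma and 0 had an unadjusted p under 0.05. Those with the smallest p were Idh2 (-0.30), Idh1 (0.20), the cytosolic isocitrate dehydrogenase, and Aldh1l1 (0.24), an enzyme of folate metabolism, read in 5 controls.

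In the citrate, malate and pyruvate list, 15 of 23 measured genes were higher at the low dose, with a median of 0.15. Limma called 0, and 3 had an unadjusted p under 0.05, all higher. These were Pdhb (0.53 ± 0.13 SE, adjusted p = 0.0844) and Dlat (0.52 ± 0.16 SE, adjusted p = 0.164), subunits of pyruvate dehydrogenase, and Cs, citrate synthase (0.45 ± 0.14 SE, adjusted p = 0.197, 5 controls). Of 22 genes that handle acetate, acetoacetate and acetyl-CoA, 17 were lower at the low dose, with a median of -0.17 that ran from -0.20 to 0.07 over the alternatives. Again limma called 0, with 1 gene higher and 7 lower at an unadjusted p under 0.05. Acot12, a cytosolic acetyl-CoA hydrolase, differed by -0.78 ± 0.23 SE (adjusted p = 0.159). Acat2 differed by -0.52 (adjusted p = 0.225), but was measured in 5 controls and 2 low-dose mice and has the near-identical neighbour Acat3.

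The users of these supplies were measured too. In fatty acid synthesis 10 of 12 genes were higher at the low dose, with a median of 0.39, and 2 were called. At an unadjusted p under 0.05, 6 were higher and 0 lower. Thrsp, a regulator of lipogenesis, rose by 2.81 ± 0.41 SE (adjusted p = 0.0109, limma; saturated on 1 array) and Elovl6, a fatty acid elongase, by 2.10 ± 0.39 SE (adjusted p = 0.0372, limma). Scd2, a desaturase, was at 0.58 ± 0.16 SE (adjusted p = 0.143). Fasn and Scd1, the fatty acid synthase and the main liver desaturase, were saturated on 10 and 9 arrays, which limits what their probes can show. In cholesterol synthesis 16 of 18 genes were higher with a median of 0.47. At an unadjusted p under 0.05, 10 were higher and 0 lower. Mvd, which makes isopentenyl diphosphate, was called at 1.70 ± 0.33 SE (adjusted p = 0.0448, limma), and Lss (0.86 ± 0.20 SE, adjusted p = 0.0711) and Fdps (0.93 ± 0.26 SE, adjusted p = 0.143) were not. The share called among all probes was 0.157% upwards. Over 35 alternatives Thrsp was called in 33, Elovl6 in 17, Mvd in 16 and Rpia in 16.

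**Figure D5:**
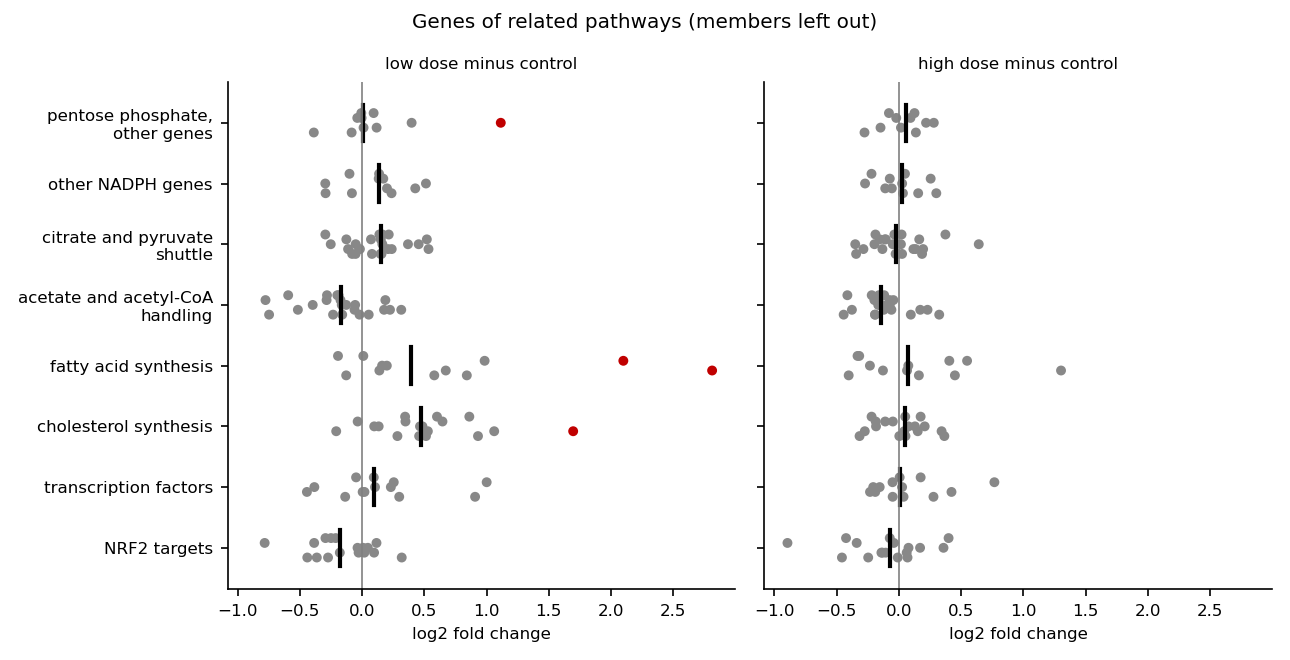
Log2 fold change of the genes of 8 related lists, with members left out, for low dose minus control and high dose minus control; each point is 1 gene, black bars are medians, and genes called by limma are red. At the low dose the medians of fatty acid and cholesterol synthesis, 0.39 and 0.47, lie furthest right, and 4 genes are red; at the high dose 0 are.

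Of 13 transcription factors and partners of lipid synthesis, 9 were higher at the low dose, with a median of 0.09. Limma called 0, with 3 higher and 2 lower at an unadjusted p under 0.05. Srebf1, which encodes SREBP-1, was at 1.00 ± 0.26 SE (adjusted p = 0.125, 5 low-dose mice), Insig1, a sterol-sensing partner and SREBP target, at 0.91 ± 0.29 SE (adjusted p = 0.195), and Mlx at 0.23 ± 0.10 SE (adjusted p = 0.329). Of the targets of NRF2, a factor that also drives genes of the NADPH supply, 11 of 17 were lower, against 54% of all probes. Their median was -0.18 and ran from -0.21 to 0.02 over the alternatives. Limma called 0 of them, with 1 higher and 3 lower at an unadjusted p under 0.05. Ephx1 was at -0.78 ± 0.26 SE (adjusted p = 0.21), Gsta3 at -0.39 ± 0.13 SE (adjusted p = 0.235, saturated on 14 arrays) and Srxn1 at 0.32 ± 0.12 SE (adjusted p = 0.271).

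At the high dose limma called 0 genes of the 8 lists against control, and the list medians ran from -0.14 for acetate and acetyl-CoA handling to 0.07 for fatty acid synthesis. Srebf1 was at 0.77 ± 0.25 SE (adjusted p = 0.59) and Thrsp at 1.30 ± 0.41 SE (adjusted p = 0.574) above control there. Elovl6 was at 0.40 ± 0.39 SE and Rpia at 0.28 ± 0.21 SE, both with an adjusted p over 0.05. Of fatty acid synthesis 2 genes were higher and 1 lower at an unadjusted p under 0.05, and of cholesterol synthesis 0. The NRF2 targets were lower in 11 of 17 here too, with 0 higher and 4 lower at an unadjusted p under 0.05. In the acetate and acetyl-CoA list 18 of 22 were lower, with 0 higher and 1 lower at that p. Among all probes 52.2% were lower at the high dose, 4.27% of all at that p.

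Among 13640 genes with a RefSeq symbol, those whose levels followed the bright Acly probe most closely over the 18 arrays were Elovl6 (Pearson r 0.98), the tRNA synthetase gene Tars (0.93), Rpia (0.92), Gpam, the first enzyme of glycerolipid synthesis (0.91), and Ttc23 (0.91). These values hold the difference between groups, which all 5 share. Over deviations from the group means, which leave that difference out, the closest were Elovl6 (0.96), Pus1, a pseudouridine synthase (0.89), Tars (0.88), Xpot, which exports tRNA from the nucleus (0.85), and Kpna4, a nuclear import factor (0.84). Elovl6 and Tars were in both sets. Of the other members read from their brightest probe, r with Acly over levels was 0.84 for Pgd, 0.80 for Acss2, 0.70 for G6pdx, 0.65 for Me1, 0.56 for Tkt and 0.35 for Slc25a1. Over deviations it was 0.57, 0.60, 0.54, 0.56, 0.69 and -0.19. Aacs was left out of this ranking because its spot was dropped on 1 array, and over the other 17 its r with Acly was 0.90 over levels and 0.82 over deviations. The arrays share the same scaling, and these correlations are descriptions over 18 mice.

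Liver is mostly hepatocytes, and 9 of 10 hepatocyte markers were measured. Their summed level was 10.01 to 10.41 in controls, 9.89 to 10.33 at the low dose and 9.92 to 10.22 at the high dose, but Alb was saturated on all 18 arrays and Apoa1 on 17, so this sum has only a bound. Limma called 0 markers of the 9 cell type lists in any comparison. At an unadjusted p under 0.05 at the low dose, the saturated Alb and Apoa1 aside, Slc2a4 of the adipocyte list (2.39 ± 0.86 SE) and Krt19 of the cholangiocyte list (0.79 ± 0.21 SE) were higher. The adipocyte list as a whole split, with 3 genes higher, 3 lower and a median of -0.04 at the low dose. The hepatocyte list had 4 genes higher, 5 lower and a median of -0.06. Fat tissue also uses this pathway, but Adipoq, Plin1, Lep and Retn were not bright enough to be tested. The summed level of the 6 measured adipocyte genes was 3.42 to 3.86 in controls and 3.23 to 3.80 at the low dose. At the high dose it was 3.07 to 3.98, so the groups overlapped. Pnpla2 and Fabp4 had the highest levels of the 6, at 2.75 and 1.76 in controls, and weigh most in this sum. Its overlap therefore cannot show whether the share of fat tissue differed. List medians for low dose against control were 0.16 for macrophages (10 of 10 measured), 0.41 for neutrophils (4 of 8), 0.17 for B cells and MHC class II (8 of 8), -0.12 for erythroid cells (3 of 7), 0.04 for endothelium (7 of 7), 0.02 for stellate cells and fibroblasts (7 of 7) and 0.45 for cholangiocytes (5 of 6). At the high dose against control 3 of 8 genes of the B cell and MHC class II list were higher at an unadjusted p under 0.05, with a list median of 0.69. Their part in the members' values was not tested.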

How the data were processed

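Gene expression was measured in livers of 18 mice on 1-colour Agilent mouse arrays, 1 array per mouse. The deposited scanner files give, per the file headers, each spot's intensity with and without the background correction that Agilent Feature Extraction 9.5.3.1 made, and its local background. The deposited value table holds 22514 probes with array medians of 7.91 to 7.94. The deposited values were read as log2 (r of 0.982 to 0.992 and slopes of 0.817 to 0.868 against log2 intensity), but its background step, centring and filter are not given in the sources used here. The submitters' processing notes name Feature Extraction 9.5 and limma without steps.

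Corrected intensity was log2-transformed, and each array was scaled to its own 75th percentile. Spots marked as outliers were dropped, spots of a probe averaged, and probes kept when well above background on at least 6 of 18 arrays (25427 of 41174 probes). Each probe was tested alone with limma 3.58.1 in R 4.3.3 (lmFit and eBayes, group as the only term, all 18 arrays), 2-sided, with Benjamini-Hochberg adjustment over all probes and a threshold of 0.05. The procedure was tested on simulated data. These held independent probes and no effects of slide, position or brightness, so the simulation does not cover those. The number of arrays limits precision: the median standard error was 0.164. The mice are separate animals, and no label pairs them.

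Members, the 8 pathway lists, the 9 cell type lists and the motifs were chosen with earlier results of these data known. Named are all member probes, the 3 genes of each pathway list with the smallest p at the low dose, and the 5 genes most like Acly by each measure. One gene that this rule names is not reported here. Marker genes, Fasn and Scd1 were named after their values were seen. Alternatives covered scaling, background, filters, probe summary, spread, slide, mouse number, array brightness and each array left out. Probe sequences were not used here.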

Additional observations from a re-analysis of the deposited data

Results flagged for a closer look

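For the Acss2 probe A_52_P566718, high-dose mouse 2 had a level of 1.69, far from the other 5 high-dose mice, whose lowest was at 2.82 and highest at 3.34. The gap to its neighbour was 0.684 of the group's whole range, above Dixon's 95% critical value for 6 samples. This was 1 of 42 groups checked over the member probes, and chance marks about 1 group in 20.

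The Acss2 probe A_52_P97564 was too dim to be tested, but low-dose mouse 1 had an intensity of 40.4 there and was well above background. The highest control was at 8.03, and no other mouse was well above background. The probe lies at chr2:155216369-155216428 on build mm8.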

How the results depend on the processing

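The count of member probes called at the low dose, 1 of 14, was 0 with the array median as scale, normexp background, no filter on dim probes, the mean of a gene's probes, slide as a block or array brightness as a covariate. It was 2 in the deposited value table, read as log2 (Acly and Aacs), 2 with only the groups compared (Acly and Me1 A_51_P266861) and 3 with array weights. Leaving out 1 array gave 0 to 2. No label pairs the mice by number. Correlations of same-numbered mice ran from -0.29 to 0.33, but had no reference values, so they cannot settle whether the numbers pair the mice. With the replicate block the member count was 0 and the count over all probes 13. High against low dose had 0 calls, 1 with array weights and 0 to 1 with an array left out (1 without low-dose mouse 2). High dose against control had 0 calls under every alternative run.

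Over all probes the low-dose count of 57 (40 higher, 17 lower) became 53 with quantile normalisation (44 and 9), 15 with the array median (14 and 1), 7 with normexp (7 and 0), 71 in the deposited table (57 and 14), 15 without a filter, 124 for probes well above background on all arrays, 15 with the mean of probes, 142 with only the groups compared, 120 with trend and robust, 223 with array weights, 4 with slide as a block, 0 with brightness and 7 to 109 with an array left out. High against low dose gave 11, with a range of 0 to 31 over the alternatives. Normexp moved the median over all probes to -0.16 at the low dose and to 0.12 for high against low dose.

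Signs turned for small or dim differences. With normexp at the low dose these were Acss2 A_52_P337928 (-0.36) and Tkt A_52_P624447 (-0.34). With normexp at the high dose they were the dim Acly probe (-0.11), Me1 A_51_P266861 (0.079) and Tkt A_52_P624447 (-0.11). For high against low dose with normexp they were Acss2 A_52_P337928 (0.081) and Tkt A_52_P624447 (0.23). With brightness as a covariate Me1 A_51_P186601 (-0.094) and Tkt A_51_P394515 (-0.037) turned at the low dose and Acly A_51_P261718 (-0.13) at the high dose. With slide as a block Acly A_51_P261718 (-0.045) and Pgd A_52_P84096 (-0.022) turned at the high dose. Pgd A_52_P84096 at the high dose was also 0 in the deposited table, -0.093 with the mean of probes and -0.0041 with array weights. Leaving out 1 array turned Tkt A_51_P394515 at the low dose (-0.0015 to 0.080), and at the high dose Acss2 A_52_P337928 (-0.46 to 0.13), Me1 A_51_P266861 (-0.37 to 0.13) and Acly A_51_P261718 (-0.023 to 0.31). The causes were not tested. Of the 5 genes most like Acly, 2 were also among the 5 by Spearman rank and 2 among the 5 by deviations.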
